A study of Mus musculus with 6 samples.

Results

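The miR-297, miR-466, miR-467 and miR-669 families are mouse microRNAs (miRNAs), most of which are encoded side by side within the gene Sfmbt2. They were followed in exosomes, the small vesicles of endosomal origin that cells release, from cultured mouse endothelial cells. Members were taken by name, as every probe of a microarray whose mouse miRNA name starts with one of the 4 family numbers followed by a letter or a hyphen. This gave 71 of 1118 mouse miRNA probes, 9 of which carry several miRNA names. Purchased endothelial cells were kept for 48 h at 3.5 mM inorganic phosphate (high, 3 arrays) or at 0.9 mM (normal, 3 arrays), all of them in a medium with 12% fetal bovine serum, endothelial growth supplement and heparin. The series concerns arterial calcification in end-stage kidney disease, and vesicles were collected from the supernatant by differential centrifugation. Whether the 3 arrays within each group go back to different cultures is not stated in the labels, so a p-value covers only how these samples vary, possibly for technical reasons alone. In such bulk RNA, fewer vesicles of a kind and less of a miRNA per vesicle cannot be told apart.

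Sfmbt2 encodes a polycomb-group protein and is an imprinted gene, expressed from the paternal copy in the extraembryonic tissues of the mouse. An intron of the gene holds a long tandem array of miRNA hairpins, known from rodents, that is best known for its role in the mouse placenta. A miRNA hairpin is cut into a 5p and a 3p arm, and the arm that is loaded into an Argonaute protein pairs with messenger RNAs through its seed, bases 2 to 8. In these families the sequences are made of short repeats, so many members differ from each other by a few bases.

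Mature sequences are given for the 8 of 80 miRNA names on the probes that RefSeq's table holds (build GRCm38.p6). They are written 5′ to 3′ with the seed in capitals. All 8 are encoded outside Sfmbt2, so they show the repeats of these members and do not describe the sequences of the cluster. Rich in U and G are the following 4.
miR-669n: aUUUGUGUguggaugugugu
miR-466j: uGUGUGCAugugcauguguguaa
miR-466k: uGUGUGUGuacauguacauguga
miR-467h: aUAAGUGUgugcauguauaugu
Rich in A and C are the other 4.
miR-466i-3p: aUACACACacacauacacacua
miR-466q: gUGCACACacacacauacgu
miR-467f: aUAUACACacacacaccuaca
miR-467g: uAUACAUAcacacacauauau
The share of U and G was 90% in miR-669n, 73.9% in miR-466j, 69.6% in miR-466k and 68.2% in miR-467h. The share of A and C was 86.4% in miR-466i-3p, 85.7% in miR-467f, 71.4% in miR-467g and 70% in miR-466q. All 8 seeds differ from each other. The closest pairs, miR-466i-3p with miR-467f and miR-467f with miR-467g, differ by 5 single-base edits, and miR-669n lies 6 edits from miR-467h. The whole Mir669n hairpin, at chr3:115979902-115979955 on the plus strand (GRCm38.p6), reads as follows, with the mature miRNA in capitals.
Mir669n hairpin: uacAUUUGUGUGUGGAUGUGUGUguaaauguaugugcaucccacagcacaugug

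Of the 3 member probes brighter than most viral probes on at least 3 arrays, 0 name only miRNAs of the Sfmbt2 cluster. RefSeq's gene table (assembly GRCm38.p6) lists 81 precursor genes of the 4 families, 71 within Sfmbt2 on chromosome 2 and 10 elsewhere, and 78 of the 80 miRNA names on the probes matched such a gene. Of the 71 probes, 56 name only miRNAs whose matched genes lie within Sfmbt2, 9 only miRNAs encoded elsewhere and 5 both, while miR-466a-5p matched none. The cluster's name therefore covers most, but not all, of the members. Probes were placed by name alone. Near-identical miRNAs may bind the same probe, so a bright probe does not show which gene its signal came from. Such binding was not tested. Signal was judged against the array's own 57 probes for miRNAs of viruses. A probe was above threshold on an array when the mean of its spots, after subtraction of the local background, was higher than the 95th percentile of those 57, a value between 1627 and 3233 units. Probes above it on at least 3 of the 6 arrays were tested. Of the 56 probes of the Sfmbt2 cluster alone, 0 met this, and 3 exceeded the threshold on 1 or 2 arrays. These 3 were the probe of miR-466b-5p and miR-466o-5p, miR-669c-5p and miR-669f-5p, with means of 1789, 1788 and 1718 units. On at least 3 arrays 52 of the 56 were above the array's Empty spots (95th percentile of 2 to 3 units). Of the 9 probes encoded elsewhere 2 met it, miR-466i-5p, from chromosome 13, and miR-669n, from chromosome 3. Of the 5 with genes in both places 1 met it, miR-466f, which has 3 precursor genes within Sfmbt2 and 1 outside. While miR-466i-5p was above the threshold on all 6 arrays, miR-669n and miR-466f were above it on 3, the fewest allowed. Their means were 2106 and 2186 units.

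**Figure D1:**
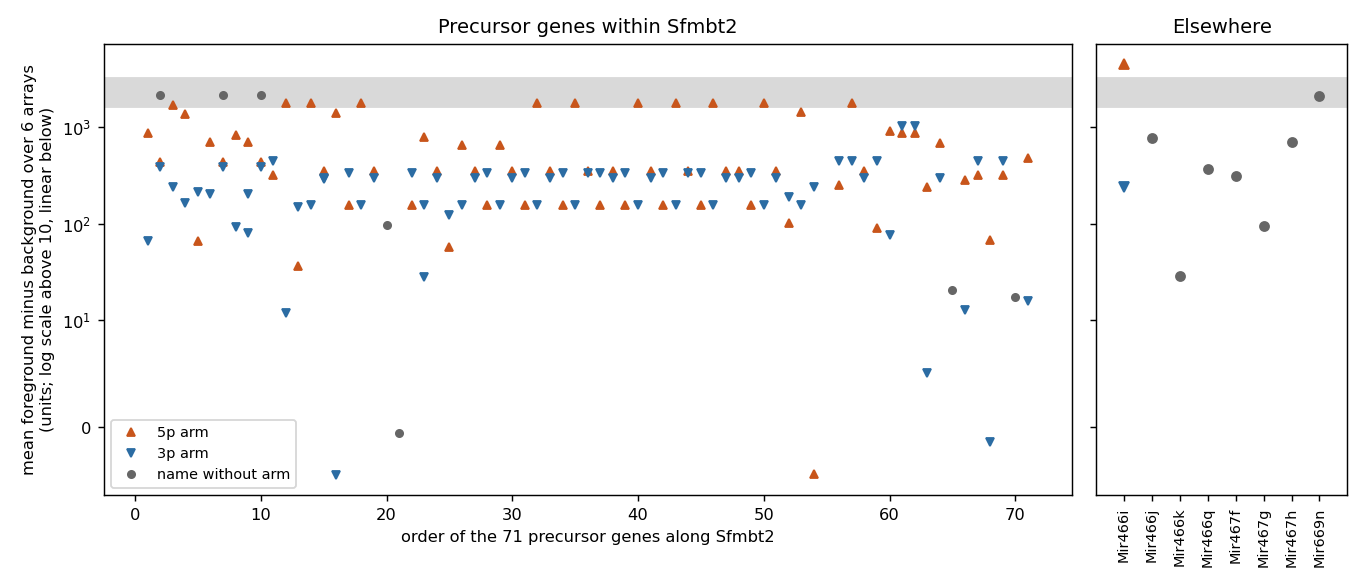
Mean foreground minus background over 6 arrays (units, logarithmic above 10 and linear below) for each member probe, placed at every matched precursor gene in their order along Sfmbt2 (left) or at single genes elsewhere in the genome (right), with 5p probes as upward triangles, 3p probes as downward triangles and names without an arm as circles. The grey band spans the threshold of the 6 arrays (1627 to 3233 units), and only Mir466i, encoded outside Sfmbt2, has a probe wholly above it. Probes of miRNAs with several genes appear once at each gene.

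Levels ranged from no signal to 4497 units, the mean of miR-466i-5p over the 6 arrays. Brightness also depends on how well a probe binds, so values of different probes describe the array and do not rank the miRNAs. The median probe of each family had a mean of 287 units for miR-297 (4 probes), 285 units for miR-466 (27 probes), 151 units for miR-467 (13 probes) and 299 units for miR-669 (27 probes). The highest mean was 444 units in miR-297, at the probe shared by the 3p arms of miR-297a, miR-297b and miR-297c, and 711 units in miR-467, at miR-467h. In miR-466 it was 4497 units at miR-466i-5p and in miR-669 it was 2106 units at miR-669n. Thus 0 of 4 and 0 of 13 probes of the miR-297 and miR-467 families passed the threshold, against 2 of 27 for miR-466 and 1 of 27 for miR-669. Over all mouse probes 129 of 1118 passed (11.5%), and among the members 3 of 71 (4.23%).

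The arms differed in brightness, in an order that depended on the family. The median 5p probe had a mean of 571 units (30 probes) and the median 3p probe 164 units (29 probes), and the 12 probes whose names give no arm had a median of 206 units. In the miR-466 family the medians were 797 units for 12 5p probes and 47.2 units for 10 3p probes. In miR-669 they were 773 units for 10 5p and 216 units for 13 3p probes. The order was the other way round in miR-467, with 57.8 units for 5 5p probes and 188 units for 5 3p probes, and in miR-297, with 256 units for 3 5p probes and 444 units for the 1 3p probe. The brightest 3p probe of all was miR-669m-3p, with 1082, 1318 and 1000 units in high and 928, 1075 and 856 units in normal phosphate, and 0 of 29 3p probes exceeded the threshold on any array. Members without any signal were miR-669j, miR-466l-3p, miR-467d-5p and miR-669k-3p, which were at or below the Empty spots (95th percentile of 2 to 3 units) on all 6 arrays.

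**Figure D2:**
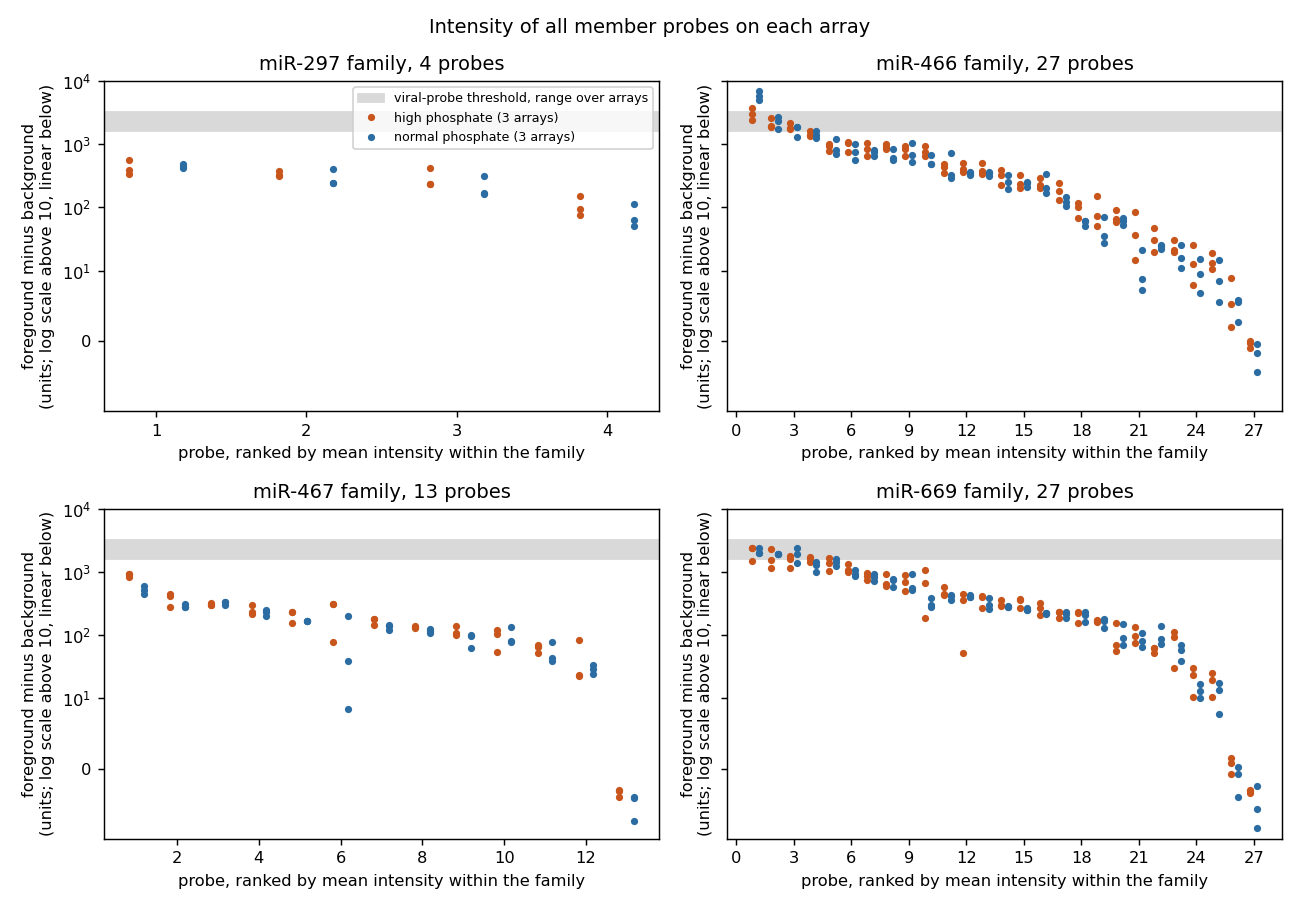
Foreground minus background (units, logarithmic above 10 and linear below) of every member probe on each array, in 4 panels by family and ranked by mean intensity, with high phosphate arrays (3) left of normal phosphate arrays (3) at each probe. The grey band is the range of the threshold over the 6 arrays; miR-466i-5p has the highest mean of the 71, and all miR-297 and miR-467 probes lie below the band.

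Probes for some endothelial markers were above the threshold, and so were probes for some markers of other cells. The endothelial markers miR-126a-3p and miR-126a-5p were above the threshold on all 6 arrays (4603 to 9967 and 6190 to 11395 units), miR-221-3p was above it on 4 and miR-222-3p on 0. Of the smooth muscle markers, miR-143-3p was above it on all 6 arrays, and no probe was found for miR-145a-5p. The red cell markers miR-451a and miR-144-3p, and miR-122-5p, taken as a serum marker, were above it on all 6. Among leukocyte markers miR-142a-5p was above it on all 6, and miR-142a-3p and miR-223-3p on 0. In epithelium miR-183-5p was above it on all 6, and miR-200c-3p and miR-205-5p on 0. The source of these signals, and the part of other cells or serum in the members' signal, was not tested. Before scaling, the spike controls averaged a log2 of 9.67 ± 0.26 (SD, n = 3) in high and 10.33 ± 0.16 (SD, n = 3) in normal phosphate, and the differences given here are relative to the quantile-normalized level shared by the arrays.

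High and normal phosphate were compared to ask whether vesicles released under phosphate load differ in these miRNAs. With limma and Benjamini-Hochberg adjustment over the 129 tested probes, 0 passed (0%), so 0 of the 3 tested members did, and the lowest adjusted p of all was 0.453. At an unadjusted p under 0.05, limma gave 9 of 129 probes (6.98%), of which 2 (1.55%) were lower in high phosphate, and miR-466i-5p was 1 of these.

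For miR-466i-5p, the 5p arm of a hairpin on chromosome 13, the arrays read 3025, 2407 and 3803 units in high phosphate and 5722, 5034 and 6992 units in normal phosphate. Every high phosphate array lay below every normal one. The means were 3078 ± 700 units in high and 5916 ± 993 units in normal phosphate (SD, n = 3 each). A 2-sided exact permutation test of these intensities gave p = 0.1, and with 3 arrays a side no smaller value is possible. After normalization the log2 difference was -0.80 (SE 0.25), a fold of 0.573 with a 95% interval from 0.382 to 0.861 (limma, adjusted p = 0.453). The groups did not overlap on this scale either, with log2 levels of 11.30 to 12.06 in high and 12.32 to 12.69 in normal phosphate. Among the 129 tested probes, 13 had groups without overlap (10.1%). Each probe had 4 spots, and those of miR-466i-5p ran from 1425 to 3445 units within high phosphate replicate 2 and from 4903 to 8102 units within normal phosphate replicate 3. Leaving out each array in turn kept the log2 difference of miR-466i-5p between -0.998 and -0.616. Scaling to the Hy3 spots, chosen after seeing the data, gave -0.25, with the median of all mouse probes at 0.48.

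The other arm of that hairpin, miR-466i-3p, measured 234, 321 and 204 units in high and 240, 210 and 255 units in normal phosphate, so the groups overlapped. On none of the 6 arrays did it exceed the threshold, and its normalized log2 levels differed by 0.01. Whether the arms differed in response was not tested.

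For miR-466f, the arrays read 1934, 2566 and 1858 units in high and 2687, 1744 and 2329 units in normal phosphate. The groups overlapped throughout, and the log2 difference was -0.02 (SE 0.27, limma, adjusted p = 0.999), with a 95% interval from -0.64 to 0.61. For miR-669n, the U- and G-rich sequence shown above, the arrays read 1475, 2411 and 2426 units in high and 2369, 1988 and 1968 units in normal phosphate. The log2 difference was 0.04 (SE 0.25, limma, adjusted p = 0.999), with a 95% interval from -0.54 to 0.63. Both intervals include an increase of 1.5-fold: as folds the interval ran from 0.642 to 1.52 for miR-466f and from 0.686 to 1.54 for miR-669n. The spots of miR-669n differed by array, running from 1414 to 3497 units in high phosphate replicate 3 and from 2221 to 2520 units in normal phosphate replicate 1. The sign of both differences turned when single arrays were left out, from -0.24 to 0.17 for miR-466f and from -0.06 to 0.25 for miR-669n.

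**Figure D3:**
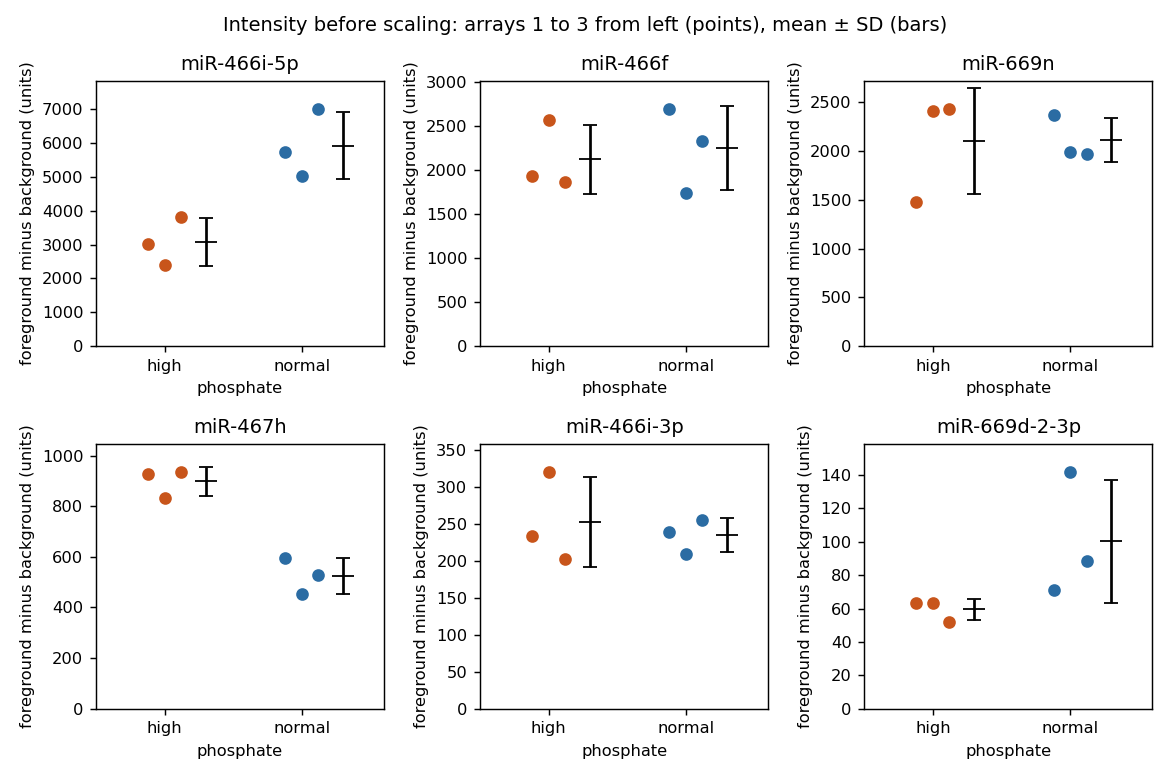
Foreground minus background (units, axes from 0) of 6 member probes on each array, with high phosphate left of normal phosphate, arrays 1 to 3 as points and the mean ± SD of each group as a bar (n = 3). For miR-466i-5p all high phosphate arrays lie lower, for miR-467h all lie higher, and for miR-466f, miR-669n and miR-466i-3p the groups overlap.

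Below the threshold, 68 members were measured but were not among the 129 probes of the main test, and 65 of them did not exceed it on any array. After normalization 5 of all 71 members had groups without overlap (7.04%), against 97 of 1118 mouse probes (8.68%). Higher in high phosphate were miR-467h, miR-466f-3p and miR-669a-3-3p, 3 members where all mouse probes gave 3.94%, and lower were miR-466i-5p and miR-669d-2-3p, where all gave 4.74%. The members' share was near that of all mouse probes.

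The clearest of them was miR-467h, encoded at chr9:115381898-115381919 on the plus strand (GRCm38.p6), outside Sfmbt2. It measured 929, 832 and 935 units in high and 594, 453 and 527 units in normal phosphate. All 3 high arrays were brighter than all 3 normal arrays, with means of 898 ± 57.9 units in high and 525 ± 70.5 units in normal phosphate (SD, n = 3 each). In a limma fit over the 996 mouse probes above the Empty spots on at least 3 arrays, the log2 difference was 0.67 (SE 0.15, 95% interval 0.31 to 1.03), which did not pass (adjusted p = 0.758). It was 1.33 when scaled to the spike controls and 1.36 when scaled to the Hy3 spots, scalings that put the median of all mouse probes at 0.45 and 0.48. In that fit 0 probes passed after adjustment and 57 had an unadjusted p under 0.05 (5.72%). Among the 67 members in it, 3 did (4.48%), namely miR-467h, higher in high phosphate as were 3.61% of all probes, and miR-466i-5p and miR-669d-2-3p, lower as were 2.11%.

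For miR-669a-3-3p the arrays read 266, 370 and 364 units in high and 252, 268 and 253 units in normal phosphate, which overlapped before normalization. For miR-466f-3p they read 369, 508 and 403 units in high and 357, 323 and 351 units in normal phosphate. These lie close together, and the normalized log2 differences were 0.28 and 0.24. The dimmest of the 5 was miR-669d-2-3p, with 63.3, 63.3 and 52.3 units in high and 71.3, 142 and 88.3 units in normal phosphate. Its log2 difference was -0.50, and normal phosphate replicate 2 was the brightest array. It was -0.89 with intensities floored at 50 units and -0.80 with the deposited normalized intensities. The sign turned, to 0.11 and 0.14, when scaled to the spike controls and the Hy3 spots. Both values lay below the median of all mouse probes under these scalings, 0.45 and 0.48.

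**Figure D4:**
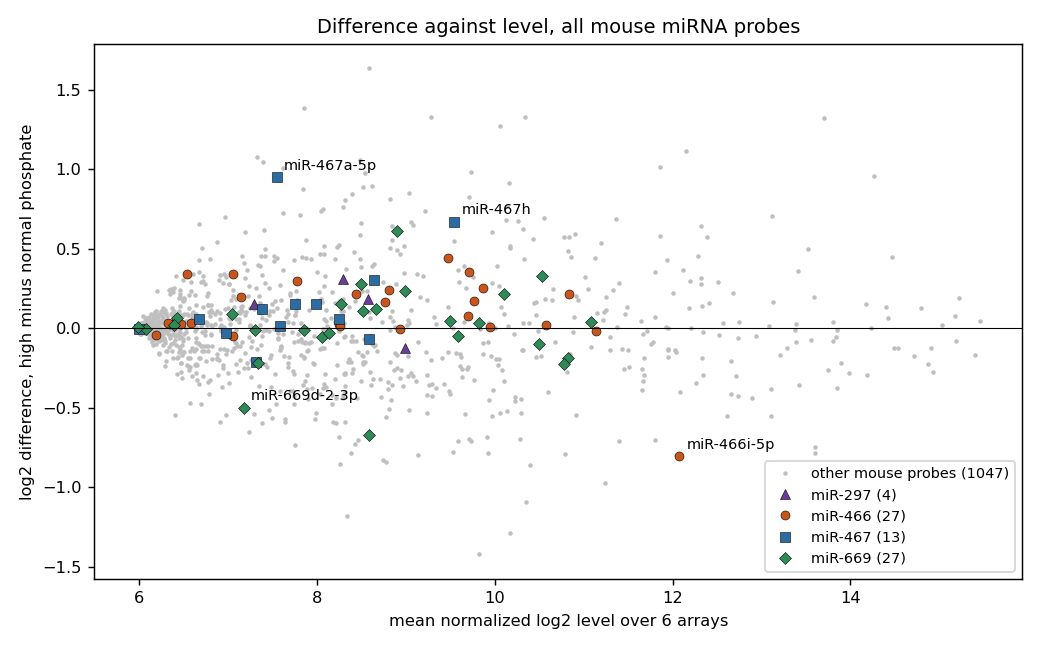
Log2 difference, high minus normal phosphate, against the mean normalized log2 level over 6 arrays for 1118 mouse miRNA probes, with the 71 members coloured by family and the other 1047 in grey. Members lie among the other probes, and the 4 named ones are miR-466i-5p at -0.80, miR-467h at 0.67, miR-467a-5p at 0.95 and miR-669d-2-3p at -0.50.

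Some larger differences came with groups that overlapped. For miR-467a-5p the log2 difference was 0.95, the highest of the members, with 78.8, 309 and 306 units in high and 8.5, 202 and 39 units in normal phosphate. Without 1 array at a time the difference of miR-467a-5p lay between 0.56 and 1.44, and it was 2.28 with the deposited normalized intensities. It was 1.67 when scaled to the spike controls and 1.70 when scaled to the Hy3 spots, where the median of all mouse probes was 0.45 and 0.48. For the probe shared by miR-669a-5p and miR-669p-5p, high phosphate replicate 2 alone stood low. It gave 366, 52 and 442 units in high and 403, 430 and 407 units in normal phosphate, and its log2 difference of -0.67 became -0.03 without high phosphate replicate 2. For miR-669h-5p the arrays read 659, 186 and 1061 units in high and lay between 283 and 381 units in normal phosphate, with replicate 2 of high phosphate the lowest of all 6.

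Over the whole set of 71 members 48 had a higher mean in high phosphate (67.6%, against 48.7% of all mouse probes), with a median log2 difference of 0.04, against -0.002 over all mouse probes. The count moved with single arrays. Without high phosphate replicate 2 it was 34 of 71 (47.9%, against 44.9% of all mouse probes), and without normal phosphate replicate 2 it was 38 of 71 (53.5%, against 48.6%). Without normal phosphate replicate 1 it was 57 of 71 (80.3%, against 48.0%), and without each of the other 3 arrays it lay between 49 and 53 of 71. The scaling moved both the members and all mouse probes. Without normalization between arrays 35 of 71 members were higher (49.3%, against 28.6% of all mouse probes, whose median was -0.22), and with median scaling 39 of 71 were (54.9%, against 31.3%, with a median of -0.18). Scaling to the spike controls or to the Hy3 spots, alternatives added after the data were seen, made 69 of 71 higher, against 96.2% and 96.8% of all mouse probes, whose medians were 0.45 and 0.48. By family, 3 of 4 miR-297, 21 of 27 miR-466, 9 of 13 miR-467 and 15 of 27 miR-669 probes were higher. Within miR-466, 10 of 12 5p probes were higher, among them miR-466e-5p at 0.36 and miR-466c-5p at 0.44, next to the lower miR-466i-5p at -0.80.

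The 3p probes shared a profile across the arrays. After normalization 20 of 29 member 3p probes (69.0%) were brightest on high phosphate replicate 2, as were 87 of 448 other mouse 3p probes (19.4%) and 6 of 30 member 5p probes (20.0%). The median deviation of the 29 probes from their own means was 0.23 on that array, -0.13 on high phosphate replicate 1 and -0.02 on replicate 3. On the normal phosphate arrays it lay between -0.10 and 0.01. The 5p probes had another profile. Their median deviation was 0.21, 0.05 and -0.01 on high phosphate replicates 1, 2 and 3, and 0.20, -0.29 and -0.13 on normal phosphate replicates 1, 2 and 3. Of the 30 5p probes, 9 were brightest on high phosphate replicate 1, 9 on normal phosphate replicate 1 and 0 on normal phosphate replicate 2. The 3p profile thus had both its highest and its lowest array in the high phosphate group. The 5p profile was about equally high on replicate 1 of both groups (0.21 in high and 0.20 in normal phosphate) and lowest on normal phosphate replicate 2. For the 448 other 3p and 442 other 5p probes the medians stayed between -0.03 and 0.02 on every array. Quantile normalization gives all arrays the same distribution over mouse and viral probes together. That limits how far sets this large can shift jointly, though it does not fix the median of each. These flat medians are therefore a weak comparison for the members. The counts of members are across probes with related sequences, which are not independent of each other.

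**Figure D5:**
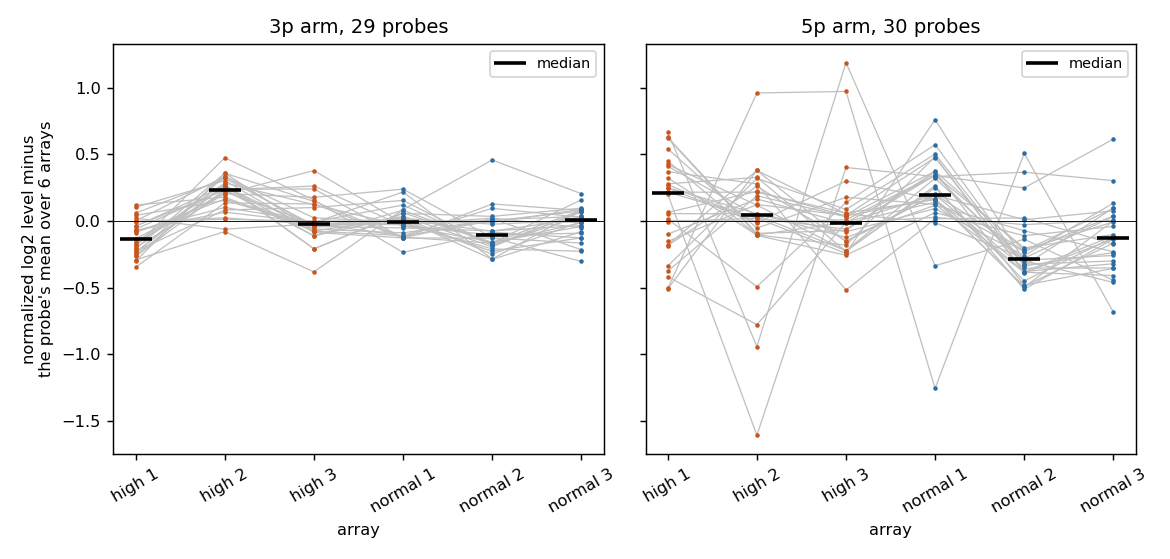
Normalized log2 level minus each probe's own mean over 6 arrays, for 29 member 3p probes (left) and 30 member 5p probes (right), with the high phosphate arrays left of the normal phosphate arrays, grey lines joining the values of a probe and black bars at the medians. The 3p median peaks on high phosphate replicate 2 at 0.23, and the 5p median is lowest on normal phosphate replicate 2 at -0.29.

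Base composition was set beside the profile that peaked on high phosphate replicate 2. Among probes of other miRNAs with a RefSeq sequence, 5 of 27 with at least 70% A and C were brightest there (18.5%), 14 of 82 at 60% to under 70% (17.1%), 52 of 274 at 50% to under 60% (19.0%), 70 of 280 at 40% to under 50% (25.0%) and 30 of 264 below 40% (11.4%). Among the 4 A- and C-rich members shown above, miR-466i-3p and miR-466q were brightest on that array, and miR-467f and miR-467g on normal phosphate replicate 1. Of the 4 U- and G-rich ones, 0 were. Of the member probes that make up the profile, only miR-466i-3p has a RefSeq sequence. The composition of the others is unknown, so whether composition goes with the profile was not tested.

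Several probes share a miRNA name and so were meant for the same or nearly the same molecule. The probe named for miR-466a-5p alone read 661, 1054 and 852 units in high and 764, 661 and 809 units in normal phosphate. The probe for miR-466a-5p and miR-466p-5p read 1406, 1595 and 1372 units in high and 1414, 1268 and 1622 units in normal phosphate. Both overlapped between the groups. The 3p arm of miR-466a was covered by a probe with 5 names, at 133, 244 and 180 units in high and 106, 147 and 122 units in normal phosphate. A second probe, for miR-466a-3p and miR-466e-3p, was near the limit of the array, at 19.8, 46.5 and 31 units in high and 24.3, 25.3 and 21.8 units in normal phosphate. High phosphate replicate 2 was the brightest array on both. The probe for miR-669d-2-3p, named above for its lower level, has a companion that also names miR-669d-3p. The companion measured 155, 235 and 225 units in high and 162, 233 and 205 units in normal phosphate, and its groups overlapped with a log2 difference of -0.05. The name miR-466f without an arm belongs to a probe that ran from 1858 to 2566 units in high and from 1744 to 2687 units in normal phosphate, while miR-466f-5p ran from 354 to 490 units in high and from 289 to 732 units in normal phosphate.

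Seeds of the 8 sequenced members, all encoded outside Sfmbt2, were compared with those of other mouse miRNAs. Of the 1047 other mouse probes, 927 had a RefSeq sequence, and the seeds of the cluster's own members were not compared. Among the other mouse probes with a RefSeq sequence, miR-668-5p alone had a seed of the 8 sequenced members, that of miR-467h, and it was dim, at 59.3 ± 32.0 units in high and 59.0 ± 11.2 units in normal phosphate (SD, n = 3 each). A list of repeat-like miRNAs fixed by name gave 4 further probes, miR-574-5p, miR-1187 and both arms of miR-3082. Of these 2 were tested and 0 passed in either direction. The seeds of miR-3082-3p and miR-3082-5p hold no repeat of UG or CA. The miR-3082-3p probe averaged 1.17 units in high and -2.83 units in normal phosphate. For miR-3082-5p the values were 3727 ± 944 units in high and 4401 ± 1383 units in normal phosphate (SD, n = 3 each), with a log2 difference of 0.00 (SE 0.32, limma, adjusted p = 0.999). For miR-574-5p they were 3087 ± 644 units in high and 3224 ± 356 units in normal phosphate (SD, n = 3 each), with a log2 difference of 0.04 (SE 0.23, limma, adjusted p = 0.999).

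Of the 67 members given a p-value in the authors' deposited table, 4 had a p under 0.05 (5.97%), against 39 of 1029 probes (3.79%). The authors' deposited table gave a fold of high over normal phosphate of 1.73 for miR-467h (p = 0.0030), 0.528 for miR-466i-5p (p = 0.0263), 1.65 for miR-466d-3p (p = 0.0399) and 1.31 for miR-669a-3-3p (p = 0.0444). All 4 carried a false discovery rate of 0.794 in the authors' deposited table.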

How the data were processed

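Small RNA of exosomes was measured on 6 1-colour arrays labelled with the dye Hy3 (miRCURY kit, per the labels' protocols), 3 per phosphate level. The authors deposited each spot's intensity with and without subtraction of local background, per the file headers. Their deposited normalized intensities equalled a probe's background-subtracted spot median over an array-wide factor, 319 to 344.5 units, within a relative tolerance of 1e-06. The authors also deposited, for each probe, a fold (ratio) of high over normal phosphate with its p-value and false discovery rate. Another 18 intensity columns of that table were not used.

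From the 15840 deposited spots, normexp correction was made with an offset of 50 in limma 3.58.1 (R 4.3.3), the spots of a probe were averaged, and arrays were quantile normalized over mouse and viral miRNA probes and taken to log2. Probes above the 95th percentile of the 57 viral probes on at least 3 arrays entered limma's linear model with eBayes (2-sided, Benjamini-Hochberg over all tested probes, threshold 0.05). The fit was tested on simulated data. Intensities have no count depth, so precision is set by how many arrays there are. The members, lists and tests were chosen with earlier results of these data known.

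Named probes were those above the threshold, the 2 brightest per family and arm, the 5 smallest p in each direction among probes above the Empty spots, those whose groups did not overlap, and the nearest by sequence. Loci came from RefSeq (GRCm38.p6) by name. The labels do not say whether equal replicate numbers pair the arrays, and the main fit used no pairing. Correlations of same-numbered deviations were 0.22, 0.03 and -0.18, and those of unlike-numbered ones ran from -0.36 to 0.45. With so few arrays these do not settle whether the design was paired. Alternatives covered background, normalization, deposited values, filter, spot averaging, variance model, pairing and single arrays.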

Additional observations from a re-analysis of the deposited data

How the results depend on the processing

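The absence of a called member held under all alternatives run, as 0 of the tested members passed under each, including no filter, the Empty filter, the replicate block and no moderation of the variance. Over all probes 0 passed under each, except 7 with scaling to the Hy3 spots, of which 0 were members. The single member at an unadjusted p under 0.05 (limma), miR-466i-5p, became 0 with median scaling and with scaling to the spike controls or the Hy3 spots. With the filter at the Empty spots the count was 3 of 67 members (4.48%), against 57 of 996 mouse probes (5.72%). It was also 3 with the filter at 30 units and 4 without a filter, fits that took in more probes. The share over all probes was not computed for these, so the higher counts do not show that more members moved. The count was 1 with the replicate block, and 0 to 1 when each array was left out, the 0 being without normal phosphate replicate 3. The median log2 difference of all members was 0.24 with the deposited normalized intensities, 0.66 when scaled to the spike controls, 0.69 when scaled to the Hy3 spots, and between -0.006 and 0.13 without 1 array at a time. The mean number of members above the threshold was 3.33 ± 2.08 in high and 2.00 ± 1.73 in normal phosphate (SD, n = 3 each), and the difference of 1.33 was between 0.50 and 2.50 without 1 array at a time. It was 2.33 at 50 units and -0.33 at the Empty spots. For miR-669n the log2 difference was -0.010 with median scaling, -0.047 without normalization and -0.11 with the deposited values, and between -0.064 and 0.25 without 1 array at a time. For miR-466f it was 0.57 and 0.60 with scaling to the spike controls and the Hy3 spots, and between -0.24 and 0.17 without 1 array at a time. The causes of these changes were not tested. Both scalings to control spots were chosen after seeing the data, and they put the median of all mouse probes at 0.45 (spike controls) and 0.48 (Hy3 spots). For 68 of the 71 members the signal was too low to enter the main test, and 65 did not exceed the threshold on any array. The fit with the filter at the Empty spots took in 67 of the 71.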
